A study of Ovis aries with 20 samples.

Results

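Cells obtain cholesterol by making it or by taking it up, and the genes for both routes, with those that sense, move, store and export the sterol, were examined in granulosa and theca cells of sheep follicles. The genes were chosen by name. Of 31 names, 29 were found among the 28524 genes of the table, and all 29 had enough signal to be tested in each comparison. They comprise 16 enzymes of synthesis, 5 genes of the SREBP pathway, 4 genes of uptake and lysosomal release, and 4 genes of transfer, esterification and efflux. IDI1 and CYP51A1 were not found under their own names. A RefSeq gene ID pairs IDI1 with the identifier LOC101108851, which is outside the named set and was not counted.

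The libraries came from adult female offspring of ewes that received testosterone propionate (prenatal T animals) or vehicle (controls) during pregnancy. The dose was 100 mg (1.2 mg/kg) at each of 2 weekly injections between gestational days 30 and 90. Ovaries were removed at 21 months of age, 18 h after the second of 2 injections of 10 mg prostaglandin F2 alpha, a hormone that ends the luteal phase, given 11 days apart to controls and prenatal T animals alike. Layers were microdissected from 14 µm sections, and several antral follicles of an animal were pooled, so a library gives no value for a single follicle. Granulosa libraries came from control sheep 224, 244, 246 and 268 and from prenatal T sheep 209, 210, 230, 276 and 315. Theca libraries came from the same 9 animals and from control sheep 139, whose granulosa cells were not analysed here.

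Cholesterol is built from acetyl-CoA by way of mevalonate, isoprenoids, squalene and lanosterol. When membranes of the endoplasmic reticulum are poor in sterol, SCAP carries the transcription factors SREBP-1 and SREBP-2 to the Golgi for activation, and INSIG proteins hold them back when sterol is plentiful. When sterol is in excess, oxysterols activate the LXR receptors, which raise the efflux pump ABCA1. In the follicle, cholesterol is also the starting material of steroid hormones, theca cells lie beside blood vessels and their lipoproteins, and granulosa cells are separated from them by the basal lamina. No sequences are shown, because none was held in the sources used here.

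Values are normalized read counts, that is, reads scaled by a size factor for each library. Depth ran from 12.7 to 26.0 M reads per library. The granulosa markers AMH and FSHR and the theca markers CYP17A1 and INSL3 checked the layer labels, and the libraries of prenatal T sheep 209 stood apart. In sheep 209 AMH and FSHR were at 0 in both layers, CYP17A1 was at 0 in both, and INSL3 was 1.27 in theca, where the other 9 libraries held at least 3546. The leukocyte gene PTPRC was 9373 in granulosa and 8427 in theca cells of sheep 209, against 48.1 to 384 and 265 to 791 elsewhere. The sum of 8 epithelial markers was 97600 in granulosa and 26224 in theca cells of sheep 209, against 148 to 4014 and 104 to 685 elsewhere. The counts and medians of the 29 genes are therefore given with and without this animal, as are the genes whose call or direction depended on it, and the plots of differences show both sets for every gene. The other 9 theca libraries also held granulosa markers at lower levels (AMH from 327 to 1569). The other 8 granulosa libraries held INSL3 (595 to 3627). In granulosa libraries the sum of 11 theca markers was 34378.5 to 84168 in controls. It was 20892 to 41778 in prenatal T animals outside sheep 209. The part of such mixing in the results, the prenatal T differences included, was not tested. In bulk libraries fewer cells of a type and less RNA per cell cannot be told apart.

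Most of the cholesterol genes differed between the layers. Of the 29 genes, 19 were higher and 2 were lower in granulosa than in theca cells at an adjusted p under 0.05 (limma with the animal as a block, adjusted by Benjamini-Hochberg over 16269 genes). Of all genes tested, 29.2% were called higher and 28% lower. On recovered reads edgeR called 20 of the 29 and DESeq2 21 (56.7% and 59% of all genes). The median log2 difference of the 29 genes was 0.45, against 0.026 over all genes tested. Without sheep 209, 18 were higher and 3 lower, 32.9% and 32.2% of all genes were called, and the median was 0.41 against 0.020. Of the 16 synthesis enzymes 13 were higher and 0 lower, with a median of 0.64, and without sheep 209 these numbers were 12, 1 and 0.52. All 5 SREBP pathway genes were higher in granulosa cells (4 without sheep 209), while the genes of uptake, release, transfer and efflux were split.

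**Figure D1:**
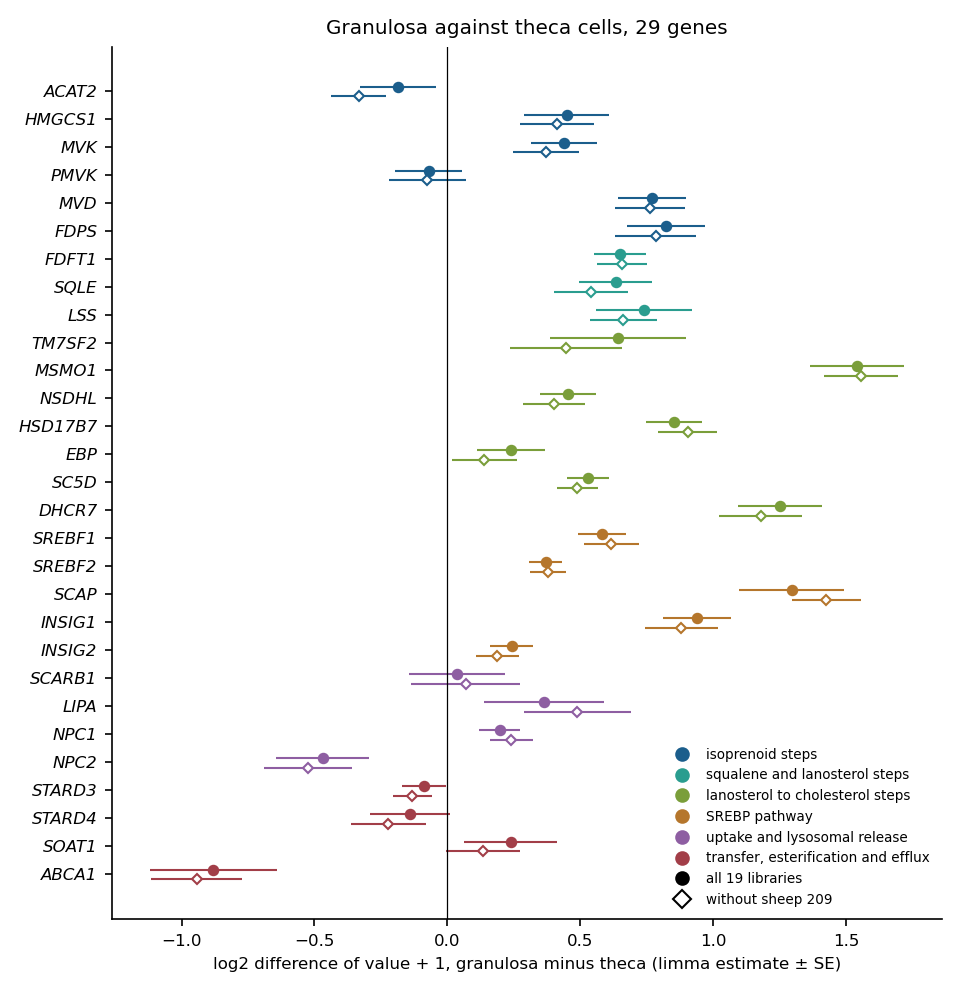
Log2 difference between granulosa and theca cells of each of the 29 genes, with the limma estimate and its SE, for all 19 libraries (filled circles) and without sheep 209 (open diamonds). Points right of 0 are higher in granulosa cells. MSMO1 lies farthest to the right at 1.54 and ABCA1 farthest to the left at -0.88.

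Among the enzymes that turn lanosterol into cholesterol, MSMO1, the methyl oxidase that removes methyl groups at carbon 4, had the largest layer difference of the 29 genes. Its normalized count ranged from 811 through a median of 3011 to 5066 in granulosa cells (n = 9 libraries) and from 359 through 873 to 2550 in theca cells (n = 10). The difference was 1.54 ± 0.18 on the log2 scale (SE), or 2.91-fold, with an adjusted p of 1.04e-06 from limma, and without sheep 209 it was 1.56 ± 0.14. The ranges overlapped, and the low granulosa value was that of sheep 209. Without this animal granulosa values started at 1952, and the only theca library above that level was the one of prenatal T sheep 276. In each of the 9 animals with both layers the granulosa value was the higher one.

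DHCR7, the reductase of the last step on one branch of the route, was 1058 at the lowest, 1392 at the median and 2367 at the highest in granulosa cells, against 328, 549 and 1573 in theca cells. The log2 difference was 1.25 ± 0.16 (adjusted p = 2.92e-06, limma), and 1.18 ± 0.16 without sheep 209. Granulosa values exceeded all theca values except that of sheep 276. HSD17B7, the ketoreductase that acts in the same removal of methyl groups as MSMO1, ranged from 103 to 220 in granulosa cells and from 54.1 to 146 in theca cells, a difference of 0.85 ± 0.11 (adjusted p = 2.51e-06, limma). NSDHL, the decarboxylating dehydrogenase of this removal of methyl groups, differed by 0.46 ± 0.10, and SC5D, the sterol C5 desaturase, by 0.53 ± 0.08. TM7SF2, a sterol reductase, differed by 0.64 ± 0.25 with all libraries. It was 0.45 ± 0.21 without sheep 209 (adjusted p = 0.0712, limma), where the call was lost. EBP, the sterol isomerase, did not pass in either set (0.24 ± 0.13 and 0.14 ± 0.12).

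All 3 genes of the squalene and lanosterol steps were called higher in granulosa cells. LSS, which closes the ring to make lanosterol, differed by 0.74 ± 0.18, FDFT1, the squalene synthase, by 0.65 ± 0.10 and SQLE, the squalene epoxidase, by 0.63 ± 0.14. FDFT1 ranged from 1115 to 2667 in granulosa and from 787 to 2004 in theca cells, and no theca library other than that of sheep 276 exceeded 1557, the lowest granulosa value outside sheep 209. These 3 genes kept similar differences without sheep 209, at 0.66 ± 0.13, 0.66 ± 0.09 and 0.54 ± 0.14.

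Of the 6 genes of the isoprenoid steps, 4 were called higher in granulosa cells. FDPS, which makes farnesyl pyrophosphate, differed by 0.82 ± 0.15, and MVD, which makes the first isoprenoid unit, by 0.77 ± 0.13. The difference of HMGCS1, which makes HMG-CoA for the pathway, was 0.45 ± 0.16 and that of MVK, the mevalonate kinase, was 0.44 ± 0.13. HMGCS1 went the other way in sheep 276, with 3608 in granulosa and 4407 in theca cells. PMVK, the kinase after MVK, was not called (-0.07 ± 0.13). ACAT2, the thiolase that joins acetyl-CoA units, was -0.19 ± 0.14 with all libraries and -0.33 ± 0.11 without sheep 209, where it was called lower in granulosa cells (adjusted p = 0.0101, limma). In sheep 209 the granulosa value of ACAT2 was 1351, against 686 at most in the other 8. For ACAT2, FDFT1, NSDHL and EBP, and also for SREBF2 and NPC1, a protein-coding neighbour overlaps the gene in RefSeq (assembly ARS-UI_Ramb_v3.0), and since the strand setting of the counting is not stated, reads of such pairs cannot be told apart.

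**Figure D2:**
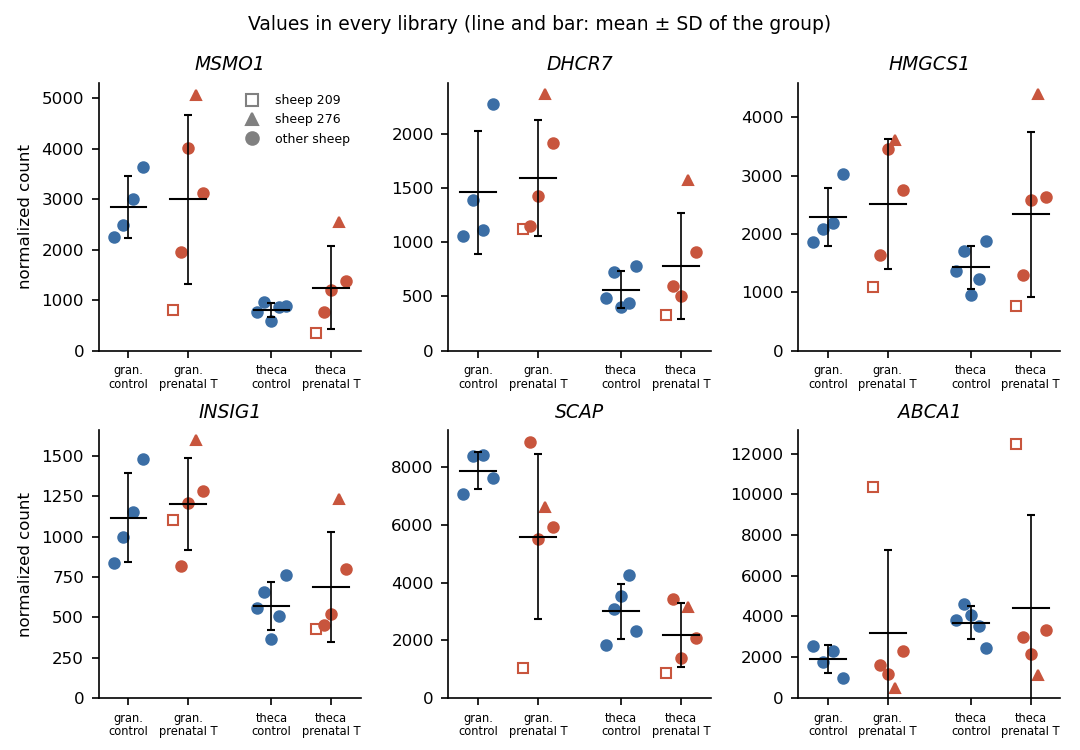
Normalized count of 6 genes in each of the 19 libraries, by layer and treatment, with horizontal lines for the group mean and bars for its SD. The open square is sheep 209 and the triangle sheep 276, which holds the highest theca value of MSMO1, DHCR7, HMGCS1 and INSIG1 and, in both layers, the lowest value of ABCA1.

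Genes of the SREBP pathway were higher in granulosa cells. SCAP, the escort of the SREBPs, had granulosa values of 1026, 7082 and 8880 (lowest, median and highest) and theca values of 855, 2694 and 4269. The log2 difference of SCAP was 1.30 ± 0.20 (adjusted p = 2.59e-05, limma) and 1.43 ± 0.13 without sheep 209. Both lowest values were those of sheep 209, and the other 8 granulosa libraries (5494 and above) lay clear of all theca libraries. A small nuclear RNA and a long noncoding RNA overlap SCAP in RefSeq, so part of its reads could belong to these entries. INSIG1, which retains SCAP in the endoplasmic reticulum and is itself an SREBP target, was 816, 1153 and 1598 in granulosa cells and 365, 540 and 1237 in theca cells. Its difference was 0.94 ± 0.13 (adjusted p = 7.4e-06, limma), and 0.88 ± 0.14 without sheep 209. SREBF1, the gene of SREBP-1, differed by 0.58 ± 0.09 and SREBF2, the gene of SREBP-2, by 0.37 ± 0.06. INSIG2, the other retention protein, differed by 0.24 ± 0.08 with all libraries and by 0.19 ± 0.08 without sheep 209 (adjusted p = 0.0537, limma).

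Efflux and lysosomal transfer were the roles with genes higher in theca cells. ABCA1, the pump that hands cholesterol to apolipoprotein A-I, ranged from 504 through 1760 to 10365 in granulosa and from 1149 through 3434 to 12476 in theca cells. Its log2 difference was -0.88 ± 0.24 (adjusted p = 0.00431, limma), and without sheep 209 it was -0.94 ± 0.17 (adjusted p = 0.000121, limma). Theca values were the higher ones in all 9 animals, although the ranges overlapped. ABCA1 is also a gene of macrophages, and the summed level of 7 immune markers was 180 to 2037 in granulosa and 593 to 2053 in theca libraries without sheep 209. The part of immune cells in the ABCA1 difference was not tested. NPC2, the lysosomal protein that hands sterol to NPC1, was lower in granulosa cells (-0.47 ± 0.18). NPC1, the membrane protein that moves sterol out of the lysosome, was higher (0.20 ± 0.08). The call of NPC2 was lost under 9 of 21 other settings and that of NPC1 under 13.

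The remaining transport genes showed no called difference with all libraries. SCARB1, the receptor that takes cholesteryl esters from high density lipoprotein, was 0.04 ± 0.18. LIPA, the lysosomal acid lipase, was 0.36 ± 0.22 and reached the threshold without sheep 209 (0.49 ± 0.20, adjusted p = 0.0403, limma). SOAT1, which esterifies cholesterol for storage, was 0.24 ± 0.18, and the sterol carriers STARD3 and STARD4 were -0.09 ± 0.08 and -0.14 ± 0.15.

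The layer difference was also present within each treatment. In controls 16 genes were higher and 1 was lower (20% and 20.2% of all genes), and in prenatal T animals 13 were higher and 0 lower (21.9% and 23.4% of all genes). Without sheep 209 these counts were 17 and 1 in controls (26% and 25.4% of all genes), fitted with the same shared spread, and 13 and 2, ACAT2 and ABCA1, in prenatal T animals (26.9% and 28.5%). By animal, 12 genes were higher in granulosa cells in all 9 animals and 1, ABCA1, was lower in all 9, where 15.8% of all genes were higher and 15% lower in every animal. Without sheep 209 these counts were 13 and 1 (23.4% and 22.5% of all genes). Like HMGCS1, the called genes SQLE, TM7SF2, NSDHL, INSIG2 and NPC1 were lower in granulosa than in theca cells of sheep 276. Their log2 differences there ran from -1.04 (TM7SF2) to -0.01 (NSDHL). MVK was lower in granulosa cells of sheep 224 (-0.22). The calls of TM7SF2, NPC1, NPC2, HMGCS1, INSIG2, MVK and ABCA1 were lost under 14, 13, 9, 5, 4, 2 and 2 of 21 settings. INSIG2 changed sign under 1 more. In the same order, limma adjusted p was up to 0.259, 0.18, 0.223, 0.459, 0.96, 0.215 and 0.158. Leaving out 1 animal at a time gave 17 to 21 called genes, the fewest without control sheep 244.

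Neighbouring pathways were counted the same way, against the same 29.2% higher and 28% lower over all genes. In the fatty acid list, which SREBP-1 also drives, 7 of 11 genes were higher in granulosa cells and 1 lower. SCD, the stearoyl-CoA desaturase, was 6019 ± 3731 (SD, n = 9) in granulosa and 1419 ± 850 (n = 10) in theca cells, a log2 difference of 2.02 ± 0.23 (SE), and 2.09 ± 0.19 without sheep 209. ELOVL6, a fatty acid elongase, differed by 1.41 ± 0.11 and FASN, the fatty acid synthase, by 0.75 ± 0.12. Of the other 8 genes of SREBP processing, 5 were higher and 2 lower. RNF139 (0.31 ± 0.06) and UBE2G2 (-0.25 ± 0.06) had the smallest p of these. MBTPS1, the protease that makes the first cut in SREBPs, differed by 0.62 ± 0.14. Of 7 LXR and oxysterol genes tested, 2 were higher and 2 lower, close to the shares over all genes. NR1H3, the gene of LXR alpha, was 351 ± 51.4 in granulosa and 842 ± 150 in theca cells (-1.24 ± 0.08, and -1.30 ± 0.08 without sheep 209), the same direction as ABCA1. LPCAT3 (0.60 ± 0.10) and OSBP (0.42 ± 0.05) of this list went the other way, higher in granulosa cells. Of 6 other lipoprotein receptor genes 3 were higher, among them LRP8 (1.80 ± 0.27) and SORL1 (1.56 ± 0.16), and LRP1, a large receptor of many ligands, was lower (-1.05 ± 0.18). LRP1 was 90578 in theca cells of sheep 209, against 16785 to 34447 in the other theca libraries, and its difference was -0.89 ± 0.12 without that animal.

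Among 7 genes of lipid droplets and ester hydrolysis, 2 were higher and 2 lower, again close to the shares over all genes. CIDEB, a lipid droplet protein, had the smallest p of this list and was low in both layers, at 0 to 5.75 in granulosa and 13.9 to 77.2 in theca cells (-3.51 ± 0.31). PLIN2, a coat protein of lipid droplets, was higher in granulosa cells (0.94 ± 0.19) and PLIN3 lower (-0.91 ± 0.15). Among 8 other sterol carriers 2 were higher and 4 lower, with STARD5 at -2.14 ± 0.27, GRAMD1C at 0.83 ± 0.13 and GRAMD1A at -0.50 ± 0.08. The isoprenoid branches that lead away from cholesterol had 4 of 8 genes higher and 0 lower. Among them were FNTB (0.46 ± 0.08), PDSS1 of ubiquinone synthesis (0.62 ± 0.16) and DHDDS (0.20 ± 0.06). Steroid hormone genes that consume cholesterol had 2 of 7 higher and 4 lower. FDX1 had the smallest p of this list and was lower in granulosa cells (-1.06 ± 0.20), while CYP19 was higher (2.91 ± 0.72). STAR, which delivers cholesterol to the inner mitochondrial membrane, was lower in granulosa cells (-1.22 ± 0.34, adjusted p = 0.005, and -1.37 ± 0.36 without sheep 209, limma). CYP11A1, the side-chain cleavage enzyme, was -1.21 ± 0.80 with all libraries (adjusted p = 0.208, limma) and -1.34 ± 0.31 without sheep 209 (adjusted p = 0.00106, limma), where it read 0 in both layers. Without sheep 209 the counts of these lists moved by at most 1 gene in either direction.

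The level of the pathway varied widely between animals. Prenatal T sheep 276 held the highest value, outside sheep 209, of 13 of the 16 synthesis enzymes in granulosa cells and of 15 of 16 in theca cells. Its enzymes stood on average 0.57 above the control mean on the log2 scale in granulosa cells and 1.18 above it in theca cells. The enzymes together took 0.162% of the reads in its granulosa library and 0.135% in its theca library. The other granulosa libraries ranged from 0.0634% to 0.141% and the other theca libraries from 0.0301% to 0.0779%. The theca library of sheep 276 was thus within the range of granulosa libraries. Control sheep 268 had all 16 enzymes above the control mean in both layers, on average by 0.39 in granulosa and 0.38 in theca cells. At the other end, and again outside sheep 209, prenatal T sheep 210 held the lowest granulosa value of 7 enzymes and control sheep 244 the lowest theca value of 10.

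The IDI1 identifier outside the set, LOC101108851, was likewise highest in sheep 276, at 3100 in granulosa and 2457 in theca cells. Other values ran from 1079 to 2515 in granulosa and from 531 to 1449 in theca cells.

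In sheep 276 and 268 ABCA1 was placed the other way. Its lowest values were those of sheep 276 in both layers (504 in granulosa and 1149 in theca cells), and the second lowest granulosa value was that of sheep 268 (979). In theca cells sheep 230 (2151) and 268 (2463) came next. Not all animals were placed so. Granulosa cells of sheep 210 had both the enzyme mean and ABCA1 below the control mean (-0.34 and -0.17). Those of sheep 315 had both above it (0.07 and 0.37), while in those of sheep 224 they were opposed (-0.26 and 0.51). In sheep 209 ABCA1 was 10365 in granulosa and 12476 in theca cells, against at most 2546 and 4610 elsewhere. Its 16 enzymes went both ways, with 7 in granulosa and 4 in theca cells above the control mean (mean deviation -0.11 and -0.35). HMGCS1, MVD, FDPS, FDFT1, LSS and MSMO1 were below all other libraries in both layers. ACAT2, TM7SF2 and EBP in granulosa cells and HSD17B7 in theca cells were above all other libraries of the layer.

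**Figure D3:**
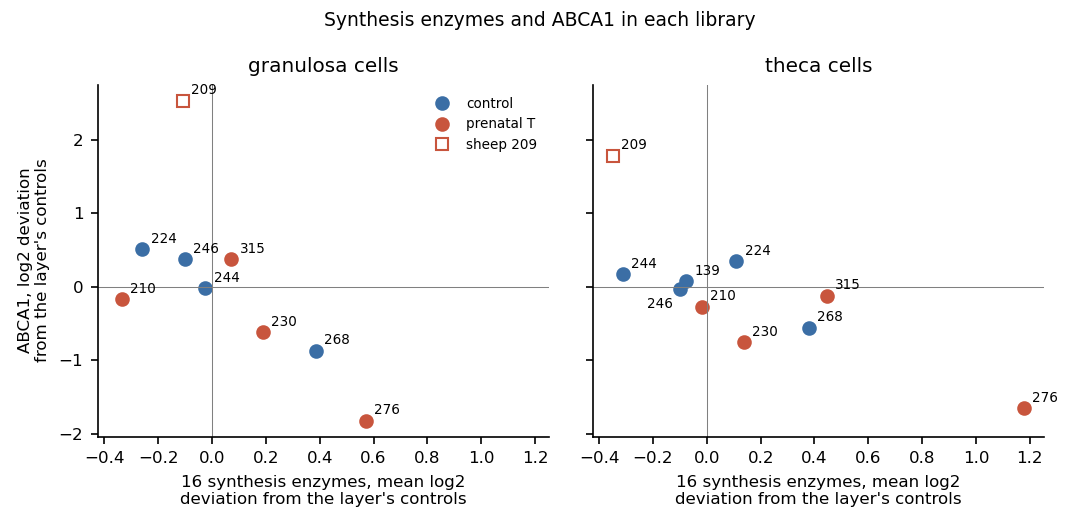
Mean log2 deviation of the 16 synthesis enzymes from the control mean of the layer, against that of ABCA1, for each library. Sheep 276 lies at the lower right of both panels (0.57 and -1.82 in granulosa cells, 1.18 and -1.66 in theca cells), and sheep 209 has the highest ABCA1 in both.

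Other marker levels moved with the libraries of sheep 276. Its theca library held the highest AMH (1569, against 327 to 1114 in the other theca libraries with AMH above 0) and the highest sum of 11 granulosa markers among theca libraries (36303, against 17522 to 29921). The same library also held the highest CYP17A1 (2523, against 585 to 1404 outside sheep 209). Its sum of 11 theca markers was not extreme, at 663831 against 594879 to 890266 in the other theca libraries outside sheep 209. PTPRC was lowest in sheep 276 in both layers, at 48.1 in granulosa and 265 in theca cells, as was CD68, a macrophage gene, at 88.2 and 90.1. The part of these cell types in the values of sheep 276 was not tested.

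**Figure D4:**
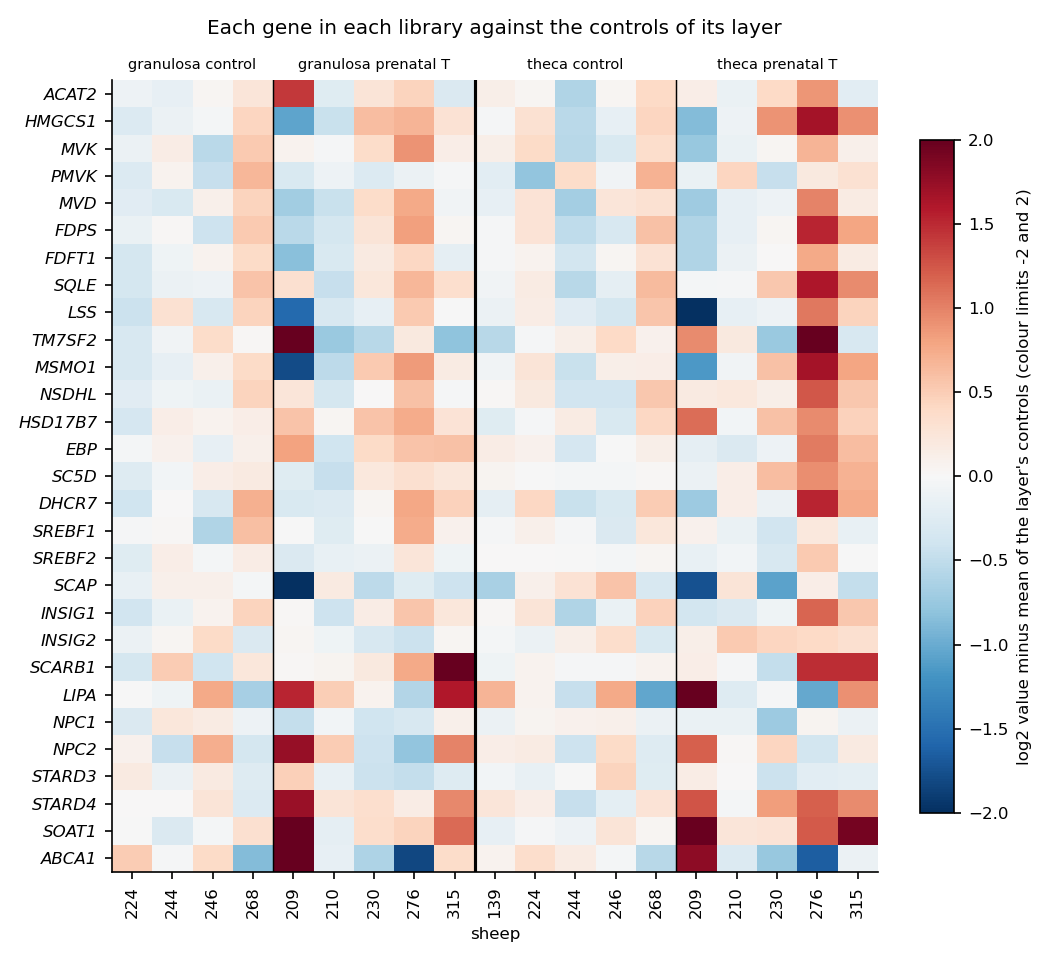
Log2 deviation of each of the 29 genes in each library from the mean of the controls of its layer, with colours limited to -2 and 2. The columns of sheep 276 are red for most enzymes, more so in theca cells, and blue for ABCA1, and the columns of sheep 209 differ from those of all other animals.

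Whether testosterone exposure before birth leaves a lasting mark on each layer was addressed by setting prenatal T animals against controls. In granulosa cells (4 controls, 5 prenatal T) 0 of the 29 genes passed an adjusted p of 0.05 in limma, as did 0 of 14724 genes, and 0 members had an unadjusted p under 0.05, where 4.22% of all genes did (0 members and 7.01% without sheep 209). edgeR and DESeq2 on recovered reads also called 0 of the 29 (0% and 0.109% of all genes), with 3 at an unadjusted p under 0.05 by each, where 5.67% of all genes by edgeR and 7.47% by DESeq2 were. The median log2 difference was 0.06, against -0.015 over all genes, and 0.13 against -0.013 without sheep 209. Values of control and prenatal T animals overlapped for all 29 genes, with and without sheep 209. Over all genes 0.72% lay apart with prenatal T higher and 1.69% with it lower, and 1.15% and 2.7% without sheep 209.

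The 6 genes of smallest p in granulosa cells were HSD17B7 (0.44 ± 0.21), STARD4 (0.69 ± 0.33), SOAT1 (0.86 ± 0.49), EBP (0.39 ± 0.25), SCARB1 (0.66 ± 0.46) and SCAP (-0.79 ± 0.55), all with an adjusted p of 0.875 in limma. For SOAT1 the controls held 269, 319, 326 and 411 and the prenatal T animals 290, 418, 445, 721 and, in sheep 209, 1932. Without that animal the difference of SOAT1 was 0.44 ± 0.26, that of HSD17B7 0.41 ± 0.21 and that of EBP 0.29 ± 0.23. SCARB1 was 883, 907, 1363 and 1658 in controls and 1179, 1208, 1323, 1963 and 5610 in prenatal T animals, the highest in sheep 315, and its difference was 0.82 ± 0.46 without sheep 209. SCAP was -0.25 ± 0.16 without sheep 209, so most of its difference lay in that library. STARD4, a cytosolic sterol carrier and SREBP target, stood at 0.43 ± 0.22 without sheep 209.

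Without sheep 209 the smallest p in granulosa cells belonged to STARD3, which moves sterol from late endosomes (-0.33 ± 0.15, adjusted p = 0.726, limma). Its controls held 351, 385, 474.7 and 475 and its prenatal T animals 301, 311, 349 and 377, so the groups overlapped at 1 library each. TM7SF2 changed sign, from 0.05 ± 0.58 with all libraries to -0.47 ± 0.26 without sheep 209, in which it was 953 against 121 to 273 in other granulosa libraries.

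In theca cells (5 controls, 5 prenatal T) 0 of the 29 genes passed the adjusted threshold in limma, edgeR or DESeq2, and limma called 0 of 15492 genes. At an unadjusted p under 0.05, 4 genes were higher in prenatal T animals and 0 lower with limma, where 4.05% of all genes were higher and 3.65% lower. edgeR gave 4 genes of either direction and DESeq2 6 (10.1% and 10.6% of all genes), and DESeq2 called 0.0452% of all genes at the adjusted threshold. Without sheep 209 limma again called 0 and the unadjusted counts were 7 higher and 1 lower, where 6.34% and 5.77% of all genes were. The median log2 difference was 0.29, against 0.00015 over all genes, and 0.31 without sheep 209. It was 0.036 without sheep 276, and 0.095 without both animals.

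SOAT1 had the smallest p in theca cells, at 1.13 ± 0.35 (adjusted p = 0.644, limma). Controls held 223, 233, 247, 258 and 299.8 and prenatal T animals 298, 304, 588, 944 and 991, the highest in sheep 209. The groups overlapped only where sheep 210 fell below control sheep 246. Without sheep 209 SOAT1 was 0.91 ± 0.31 and without sheep 209 and 276 it was 0.81 ± 0.34. STARD4 was 0.84 ± 0.26 with all libraries and 0.73 ± 0.26 without sheep 209. Its controls held 121, 144, 181, 196 and 201 and its prenatal T animals 161, 295, 319.7, 379 and 396. Again it was sheep 210 that lay within the controls. HSD17B7 (0.61 ± 0.27) was the other enzyme with SC5D at an unadjusted p under 0.05, and INSIG2 (0.36 ± 0.17) and SQLE (0.61 ± 0.33) followed. Without sheep 209 HSD17B7 (0.48 ± 0.25) was no longer among the genes at an unadjusted p under 0.05, and INSIG2 (0.42 ± 0.16) and SQLE (0.77 ± 0.31) were.

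SC5D was 0.45 ± 0.19 with all libraries and 0.59 ± 0.15 without sheep 209 (adjusted p = 0.371, limma). Its control values were close together, at 414, 418, 427, 436 and 446, and the prenatal T animals held 395 in sheep 209, 467 in 210, 654 in 230, 814 in 276 and 691 in 315. SC5D was the only gene of the 29 whose theca groups did not overlap without sheep 209, where 2.53% of all genes lay apart with prenatal T higher and 2.08% with it lower. With all libraries 0 of the 29 lay apart (1.28% and 0.981% of all genes).

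**Figure D5:**
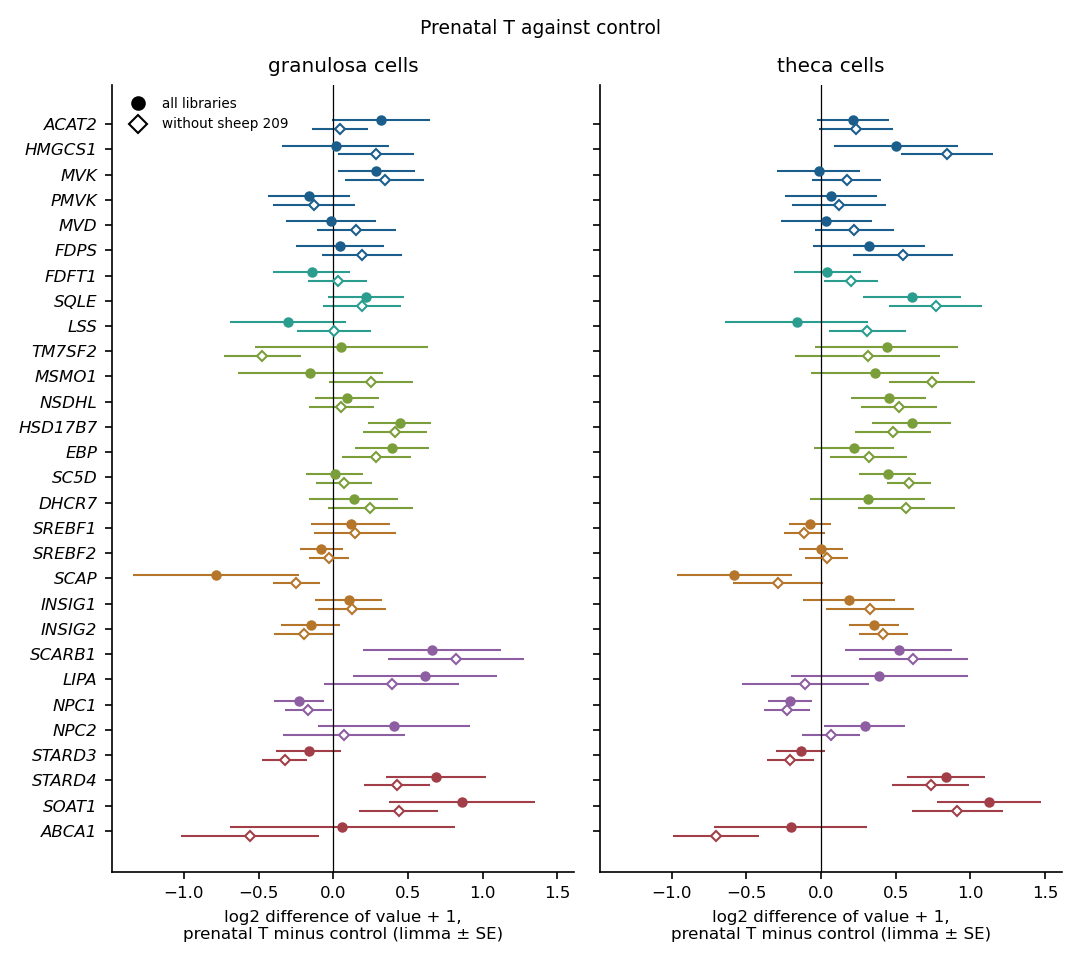
Log2 difference between prenatal T and control animals of each gene in granulosa and theca cells, with the limma estimate and its SE, for all libraries and without sheep 209. No gene passed the adjusted threshold. In theca cells most points lie right of 0, with SOAT1 farthest at 1.13, and in granulosa cells most points do so too.

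Of the 16 synthesis enzymes, 14 had a theca difference above 0, with a median of 0.32, and without sheep 209 all 16 did, with a median of 0.40. Without sheep 276 it was 12 of 16, with a median of 0.027, and without sheep 209 and 276 it was 13, with a median of 0.16. Over all genes tested in theca cells 7747 of 15492 lay above 0, and 7393 of 15304 without sheep 209. In granulosa cells 11 of the 16 enzymes lay above 0, with a median of 0.05, and 14 without sheep 209, with a median of 0.17. Without sheep 276 it was 6 of 16 there, with a median of -0.051, and without sheep 209 and 276 it was 7, with a median of -0.013. Over all genes tested in granulosa cells 7119 of 14724 lay above 0, and 6921 of 14460 without sheep 209. In theca cells HMGCS1 was 0.84 ± 0.31 and MSMO1 0.74 ± 0.29 without sheep 209 (adjusted p = 0.373 and 0.385, limma). Without sheep 276 they were 0.21 ± 0.37 and 0.04 ± 0.36. Theca values of HMGCS1 were 962, 1236, 1362, 1716 and 1881 in controls and 764, 1302, 2589, 2626 and 4407 in prenatal T animals. The theca values of sheep 230, 276 and 315 exceeded all controls, and sheep 209 was below them all.

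Uptake and efflux genes varied by animal in theca cells too. SCARB1 was 3295 in sheep 276 and 3305 in sheep 315, while the other 8 theca libraries lay between 849 and 1293. ABCA1 was -0.20 ± 0.51 with all libraries and -0.70 ± 0.29 without sheep 209 (adjusted p = 0.393, limma), the 1 lower gene among those at an unadjusted p under 0.05. Its controls held 2463, 3533, 3823, 4068 and 4610 and the prenatal T animals other than sheep 209 held 1149, 2151, 3001 and 3335. STAR was 0.25 ± 0.60 and CYP11A1 -1.65 ± 2.04 in theca cells, and without sheep 209 they were 0.63 ± 0.52 and 0.69 ± 0.25 (adjusted p = 0.627 and 0.381, limma).

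The difference of the prenatal T effect between the layers was tested for each gene, and 0 of the 29 passed with limma, edgeR or DESeq2. limma called 0 of 16269 genes, and 2 of the 29 had an unadjusted p under 0.05, where 5.42% of all genes did. edgeR had 4 such genes and DESeq2 3 (4.87% and 5.35% of all genes), and DESeq2 called 0.123% of all genes at the adjusted threshold. The 2 genes by limma were INSIG2, with a granulosa effect 0.50 ± 0.16 below its theca effect on the log2 scale (-0.50, adjusted p = 0.849, limma), and SC5D (-0.45 ± 0.16, adjusted p = 0.865, limma). INSIG2 was 172, 193, 215 and 274 in control granulosa cells and 156, 169, 198, 215 and 217 in those of prenatal T animals. In theca cells it was 121, 136, 144, 161 and 190.5 in controls and 161, 185, 196, 201 and 213 in prenatal T animals. The third gene by p was NSDHL (-0.37 ± 0.21). Without sheep 209 the differences were -0.61 ± 0.16 for INSIG2, -0.52 ± 0.15 for SC5D and -0.47 ± 0.23 for NSDHL, with adjusted p of 0.389, 0.395 and 0.561 in limma.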

How the data were processed

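RNA of microdissected granulosa and theca cells was sequenced from ribosome-depleted stranded libraries, per the labels' protocols. Each deposited value is a signal, a gene's read count scaled by the authors with a library size factor. Tools per the submitters' processing notes were STAR 2.6.0c, featureCounts, Subread 1.6.1, FastQC 0.11.5, MultiQC 0.9 and DESeq2. The genome build and the strand setting are not given in the sources used here. All values were whole multiples of 1 step per library (relative tolerance 1e-06), so whole reads were recovered.

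Genes reaching 10 in at least 5 of the libraries compared entered limma 3.58.1 (in R 4.3.3). The test used log2(value + 1) and a mean-variance trend, so fold changes of low genes are understated. Granulosa and theca cells were fitted apart for prenatal T, and together with the animal as a block for the layer difference and the difference of effects. Tests were two-sided, with p adjusted by Benjamini-Hochberg over all genes tested. As alternatives, the recovered reads were tested with the quasi-likelihood test of edgeR 4.0.16 and with DESeq2 1.42.0. Scripts were tested on simulated data. The sheep IDs in the labels pair the layers, and deviations from group means of an animal's layers had r between 0.42 and 0.80 over genes, though genes are no independent replicates. No library repeated another of its group (smallest chi-square per degree of freedom 25.9).

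The named genes, their lists and the comparisons were chosen with earlier results of these data known. All 29 genes are given in the layer comparison. For prenatal T the 6 of smallest p in each layer are given and for the difference of effects 3, with and without sheep 209, besides up to 3 genes of smallest p per neighbouring list. STAR and CYP11A1 were added. Genes chosen after their values were seen are ABCA1, HMGCS1 and SCARB1 beside the animals. Symbols and overlapping genes come from a RefSeq table of assembly ARS-UI_Ramb_v3.0. The overlaps rest on its coordinates, which may differ from those of the build used for counting. Other settings were pseudocounts of 0.5 and 5, no filter, TMM scaling, other forms of the block, and leaving out each animal. Leaving out sheep 209 and 276 together was chosen after seeing the data.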

Additional observations from a re-analysis of the deposited data

Results flagged for a closer look

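In each of the 4 groups the highest or lowest library was compared with the gap to its nearest neighbour, and 9 values stood apart among 116 sets of gene and group. Chance would flag about 1 in 20 sets of independent, normally distributed values, which unlogged counts of genes in the same libraries need not be. Of the 9, 5 belong to prenatal T sheep 209: TM7SF2 at 953 in granulosa cells (others 121 to 243), STARD3 at 582 (others 301 to 377), SOAT1 at 1932 (others 290 to 721) and ABCA1 at 10365 (others 504 to 2314) in granulosa cells, and ABCA1 at 12476 in theca cells (others 1149 to 3335).

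Prenatal T sheep 276 stood apart for NSDHL in theca cells, at 993 against 456 to 610 in the others, and for SREBF1 in granulosa cells, at 2592 against 1315 to 1649. SCARB1 in granulosa cells was 5610 in prenatal T sheep 315, against 1179 to 1963. STARD3 in theca cells was 598 in control sheep 246, against 372 to 435.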

How the results depend on the processing

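In the layer comparison 21 genes were called. Without the animal as a paired block 13 were called, and all 13 were among the 21. With prenatal T animals alone it was 13 as well. The other settings gave 17 to 23. With the animal as a fixed block 19 were called, and no other comparison called a gene under any form of the block or any other setting. Of the 21 genes, 11 kept their direction and call under all 21 settings, 10 lost the call under some, and INSIG2 also changed sign with prenatal T animals alone (-0.0086). Among genes not called, PMVK was 0.029 with controls alone, and SCARB1 was -0.040 with controls alone and -0.055 to 0.15 when 1 animal was left out.

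TM7SF2 in granulosa cells ranged from -0.47 to 0.27 for prenatal T against control when 1 animal was left out, and was -0.70 without sheep 209 and 276. The median prenatal T difference of the 29 genes in theca cells was 0.29 and ranged from 0.036 (without sheep 276) to 0.35. In granulosa cells it was 0.06, and it was -0.03 without sheep 276. The cause of these shifts was not tested. Depth was 12.7 to 26.0 M reads per library, and all 29 genes passed the filter on low values in every comparison.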
